A study of Mus musculus with 4 samples.

Results

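Mrc1 macrophages made up 1311 of the 31143 cells with more than 500 detected genes in 4 single-cell RNA libraries of mouse MC38 tumors (4.21%). They were chosen by their UMIs, the unique molecular identifiers that each count 1 captured RNA molecule. A member had at least 2 UMIs of Mrc1, at least 2 UMIs of C1qa, C1qb and C1qc together, and 0 UMIs of the T cell genes Cd3d, Cd3e and Cd3g, the endothelial gene Pecam1 and Hmga2, used here for tumor cells. MC38 is a colon adenocarcinoma line of C57BL/6 mice. It carried WT RAC1 or a homozygous CRISPR-Cas9 knock-in of RAC1 A159V in a clonal line (clone 9, unless otherwise specified in the methods) and was grown under the skin of female or male C57BL/6 mice of 6 to 8 weeks. The 4 groups were WT with IgG, WT with anti-PD1, A159V with IgG and A159V with anti-PD1, where IgG was the isotype control of the anti-PD1 antibody, and each group was 1 library. The number of mice behind a library and their sex per group are not given in the sources used here. All mice bore MC38 tumors and received an antibody, and the mutation was in the tumor cells, so the macrophages came from hosts without it. CD45+ and CD45- cells of each dissociated tumor were separated on beads and remixed at a set ratio, so a share of all cells does not give a share of the tumor. The values of the 4 libraries are given below in the order WT IgG and WT anti-PD1, then A159V IgG and A159V anti-PD1. The members numbered 200, 579, 213 and 319 in these libraries, so that WT anti-PD1 held 44.2% of them.

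Mrc1 encodes the mannose receptor CD206, an endocytic lectin that takes up glycoproteins and microbial sugars. C1qa, C1qb and C1qc encode the chains of complement C1q, which tissue macrophages make and monocytes largely do not. Macrophages with CD206 are found in resting tissues, in healing wounds and in tumors, where they are known for uptake of debris, for growth factors such as IGF1 and for genes that interleukin 4 induces through the transcription factor STAT6, among them Retnla and Ccl24. Tumors also hold macrophages with Arg1, the enzyme arginase, and inflammatory macrophages that come from blood monocytes.

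The label was checked against macrophage markers that the rule had not used. Adgre1 (F4/80), Cd68, Csf1r, Fcgr1, Mertk, Lyz2, Aif1 and Ptprc were all detected in the members of each library, and at least 1 of these 8 had a UMI in 99.1% to 100% of them. Ptprc (CD45) is a gene of leukocytes in general, T cells included, and does not mark macrophages alone. The T cell list of Trac, Trbc2, Cd8a, Cd4 and Lck summed to 3.93 to 11.9 CPM (UMIs of a gene per 1000000 UMIs of the class). Krt8 and Krt18 were at 0 UMIs in the members of all 4 libraries. In the tumor cell gate they reached only 0.408 and 0.270 CPM, so their absence does not set the members apart from tumor cells. Rhox5 and Prl2c2, also on the tumor list, were not at 0, and this list summed to 200, 1.57, 185 and 95.1 CPM. The fibroblast list of Col1a1, Col1a2, Col3a1, Dcn, Pdgfra and Lum stood at 700, 4069, 39.8 and 82.5 CPM. WT anti-PD1 thus stood apart. At least 1 UMI of Col1a1, Col1a2, Col3a1 or Dcn was found in 91.0% of its members and in 10.3% to 27.3% of those of the other libraries. Of its cells, 18.0% passed the fibroblast gate against 2.11% to 3.06%, and 0.789% the tumor cell gate against 9.48% to 14.8%. Total depth was 54402632 to 125227747 UMIs per library, and the median member had 4743.5, 4482, 2841 and 3894 UMIs. Predicted doublets were 8%, 2.25%, 5.16% and 5.02% of the members and were kept. Pairs of libraries shared 13 to 22 barcodes, and no shared barcode was a member in both.

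Mrc1 macrophages were compared with all C1q macrophages, which met the same conditions apart from that on Mrc1. Their share was 200 of 806 cells in WT IgG (24.8%, 95% exact binomial interval 21.9% to 27.9%). It was 579 of 756 in WT anti-PD1 (76.6%, 73.4% to 79.6%), 213 of 808 in A159V IgG (26.4%, 23.4% to 29.5%) and 319 of 854 in A159V anti-PD1 (37.4%, 34.1% to 40.7%). The IgG libraries lay next to each other, A159V anti-PD1 above them and WT anti-PD1 highest. As folds of shares, A159V IgG over WT IgG was 1.06 (0.899 to 1.25), WT anti-PD1 over WT IgG was 3.09 (2.72 to 3.5) and A159V anti-PD1 over A159V IgG was 1.42 (1.23 to 1.64). These intervals cover counting error only, since with 1 library a group no spread between tumors could be measured and no test was made. With cells thinned to 2000 UMIs each, the first fold was 1.40 (1.11 to 1.77). The fold in WT moved to 2.23 with 1 Mrc1 UMI as the minimum and to 3.98 with 3, and in A159V to 1.17 and 1.84. Without the cells that had 20 or more UMIs of the 4 collagen and decorin genes, the share in WT anti-PD1 was 77.9%.

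**Figure D1:**
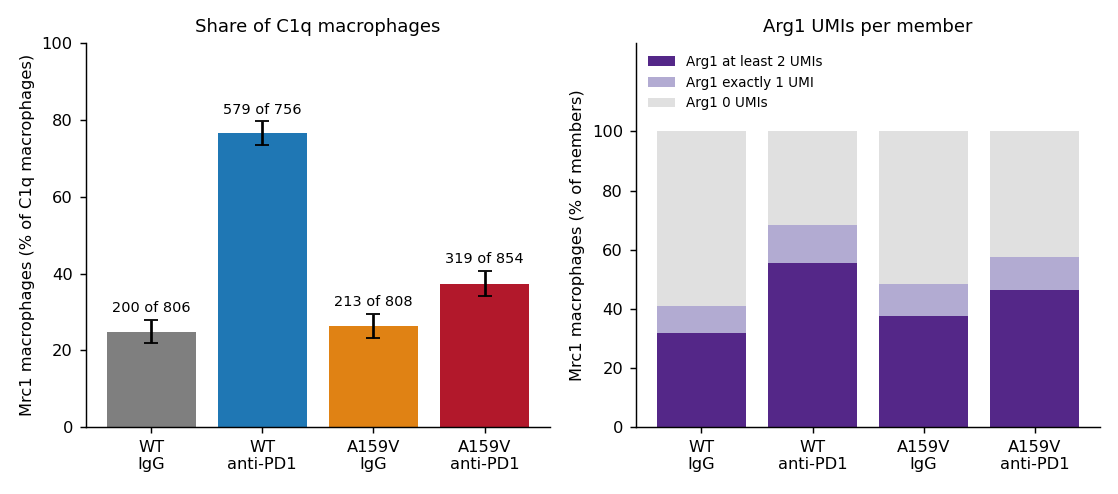
The left panel plots Mrc1 macrophages as a percent of C1q macrophages in each library, with bars for the share, whiskers for the 95% exact binomial interval and cell numbers above, and WT anti-PD1 stands at 76.6% against 24.8% to 37.4% in the others. The right panel stacks the members of each library by their Arg1 UMIs, with at least 2 UMIs in 32.0% to 55.4%.

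The values that chose the members are given as a description. C1q macrophages with exactly 1 Mrc1 UMI, just outside the limit, numbered 115, 79, 136 and 111, and those with exactly 2, just inside it, 59, 52, 79 and 59. Members with 10 or more Mrc1 UMIs numbered 36, 264, 21 and 85. Cells with Mrc1 and exactly 1 C1q UMI numbered 20, 81, 19 and 27 against 8, 60, 20 and 28 with exactly 2. The exclusion genes removed 59 of 259, 403 of 982, 45 of 258 and 137 of 456 cells that met the other conditions. Pecam1 alone removed 39, 349, 25 and 97 of these, and 29, 324, 23 and 92 of the cells it removed had no UMI of Cdh5, Kdr, Cldn5 or Emcn, the other endothelial markers looked at. With Pecam1 allowed in every class the shares were 23.6%, 77.9%, 25.8% and 36.6%.

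The 5 label markers besides Mrc1 were Ccl8, Cbr2, Gas6, Igf1 and Retnla, and their levels are described without a test. Ccl8 (chr11:82115185-82116799, GRCm38), a chemokine that draws monocytes and T cells, was at 897, 3575, 1914 and 2655 CPM in the members. In C1q macrophages with 0 UMIs of both Mrc1 and Arg1 it was at 76.9, 265, 80.6 and 110 CPM, so the members were higher in all 4 libraries. Cbr2 (chr11:120729489-120732114), a carbonyl reductase, was at 40.9, 33.9, 78.1 and 129 CPM against 1.59, 0, 0 and 1.74. Gas6 (chr8:13465374-13494490), the ligand through which TAM receptors recognize dying cells, was at 55.1, 76.3, 57.6 and 109 CPM against 1.06, 240, 12.1 and 14.8, and was thus lower in the members of WT anti-PD1, whose other class also held the fibroblast UMIs given below. Igf1 (chr10:87858265-87937042), a growth factor, was at 37.8, 281, 72.7 and 58.6 CPM against 4.24, 167, 7.80 and 5.22. Retnla (chr16:48842551-48844461), a secreted protein that interleukin 4 induces, was at 69.2, 597, 214 and 29.3 CPM against 0, 73.3, 1.73 and 0. Mrc1 itself (chr2:14229392-14332057) was at 1067, 2459, 1392 and 1838 CPM by the choice of members.

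These label markers were each found in a minority of the members, apart from Ccl8 in WT anti-PD1. Among members thinned to 2000 UMIs (1090 cells in all), Ccl8 had a UMI in 25.1%, 52.6%, 24.5% and 36.4%. T cells of the same libraries thinned alike, which should lack it and had median depths of 2224 to 3576 UMIs before thinning, had a Ccl8 UMI in 1.13%, 5.08%, 0% and 0.943%. A share of 0% among the 289 thinned T cells of A159V IgG allows up to 1.04%. Cbr2 was found in 4.81%, 5.89%, 10.1% and 14.5% of thinned members, and in 0% of the T cells of each library, which allows up to 0.412% to 1.04%. Igf1 was found in 3.74%, 25.9%, 10.1% and 8.92% and Gas6 in 5.88%, 9.05%, 6.29% and 11.2%, against at most 1.23% of T cells for both. Retnla was found in 2.67%, 10.5%, 4.40% and 2.97%, the rarest in each library apart from WT anti-PD1, where Gas6 and Cbr2 were rarer. In WT IgG and WT anti-PD1 the T cells had Retnla in 0.565% and 1.23%. Before thinning, 1 member held 35.2%, 17.2%, 69.9% and 20.5% of all Retnla UMIs of its library. A library's Retnla level therefore rested on few cells, and in A159V IgG mostly on 1. The 10 top members of WT IgG held 68.7% of the UMIs of Ccl8, 83.3% of Igf1, 84.3% of Gas6 and 86.5% of Cbr2. For these genes the 10 top members held 22.7% to 44.4% in WT anti-PD1 and 46.9% to 77.4% in the A159V libraries.

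**Figure D2:**
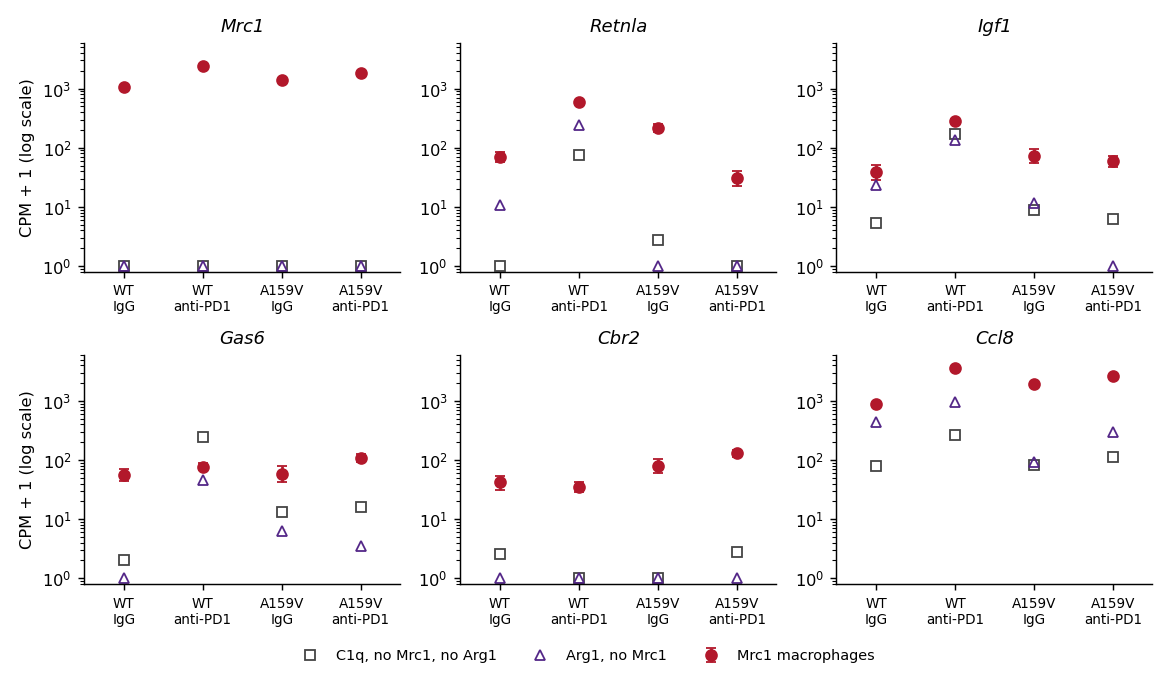
Each panel plots 1 label marker as CPM + 1 on a log scale in the 4 libraries, with circles for Mrc1 macrophages (whiskers are 95% Poisson intervals), squares for C1q macrophages without Mrc1 and Arg1 and triangles for Arg1 macrophages without Mrc1. Ccl8 is at 897 to 3575 CPM in the members and Cbr2 at 33.9 to 129 CPM, above both other classes in each library, while Gas6 in WT anti-PD1 lies below the squares.

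The promoter sequences below show the gate gene Mrc1 and 2 genes of the interleukin 4 pathway that were high in the members of WT anti-PD1, Retnla and Pdcd1lg2, which encodes PD-L2, a ligand of PD-1. They are from RefSeq (GRCm38.p6, plus strand) and cover bases -250 to -61 before the RefSeq start of each gene, which for Retnla and Mrc1 lies downstream of the GENCODE start in the coordinates above. Capitals mark a match to TTC, then 4 bases of any kind, then GAA, the palindrome that STAT6 is known to bind. The motif reads the same on both strands and was found in 1233 of 27025 RefSeq promoter windows of this length (4.56%). It started at base -145 in Retnla (chr16:48842359-48842548) and at base -82 in Pdcd1lg2 (chr19:29410669-29410858), and these letters were not in the window of Mrc1 (chr2:14229164-14229353). A match is a description of the letters and not of a bound site.
Retnla: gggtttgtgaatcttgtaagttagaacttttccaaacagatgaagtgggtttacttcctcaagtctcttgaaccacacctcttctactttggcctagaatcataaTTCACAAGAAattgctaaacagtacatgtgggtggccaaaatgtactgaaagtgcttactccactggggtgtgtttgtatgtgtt
Pdcd1lg2: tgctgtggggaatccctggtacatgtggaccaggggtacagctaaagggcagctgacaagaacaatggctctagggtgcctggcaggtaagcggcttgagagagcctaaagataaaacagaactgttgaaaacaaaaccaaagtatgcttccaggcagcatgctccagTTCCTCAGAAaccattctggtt
Mrc1: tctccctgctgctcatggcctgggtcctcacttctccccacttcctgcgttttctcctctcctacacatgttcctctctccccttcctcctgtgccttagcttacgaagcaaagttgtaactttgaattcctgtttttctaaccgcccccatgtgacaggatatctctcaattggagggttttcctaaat

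Members with Cbr2 had the other label markers more often than members without it. Over the 1090 members of all 4 libraries thinned to 2000 UMIs, 92 had a Cbr2 UMI, and 79.3% of these had Ccl8 against 36.2% of the 998 without Cbr2. Gas6 was found in 37.0% of the Cbr2-positive members against 6.01%. Igf1 was found in 41.3% against 13.2%, and Folr2, a folate receptor of resident tissue macrophages, in 33.7% against 13.2%. Each of these 4 shares was higher with Cbr2 in all 4 libraries. Members with Retnla had Igf1 in 38.6% against 14.0% and Cbr2 in 21.4% against 7.55%, each higher in all 4 libraries. They had Ccl8 in 55.7% against 38.7% and Gas6 in 25.7% against 7.45%, each higher in 3 libraries. Only 5 thinned members of WT IgG and 7 of A159V IgG had Retnla. Lyve1, a hyaluronan receptor of macrophages near vessels, was found in 16.3% of the Cbr2-positive members against 0.701%, and was higher in 3 libraries. Members with Arg1, by contrast, were 57.6% of the Cbr2-positive and 51.6% of the others, higher in 2 of the libraries. Before thinning, Lyve1 was found in 3%, 0.345%, 4.23% and 6.58% of the members, so WT anti-PD1, with the most members, had the smallest share with Lyve1. All of these are shares of cells that come from 4 libraries and carry no test.

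Arg1 split the members of every library. At least 2 Arg1 UMIs were found in 64 of 200 members of WT IgG (32.0%), 321 of 579 of WT anti-PD1 (55.4%), 80 of 213 of A159V IgG (37.6%) and 148 of 319 of A159V anti-PD1 (46.4%). In thinned cells an Arg1 UMI was found in 34.8% to 59.6% of members and in 0.377% to 2.83% of T cells. Exact 95% intervals of the first shares were 25.6% to 38.9%, 51.3% to 59.5%, 31.0% to 44.4% and 40.8% to 52.0%. Members with Arg1 were deeper than members with 0 Arg1 UMIs, with medians of 5597, 5525, 3289.5 and 4386.5 UMIs against 4633, 3123, 2481.5 and 3368. Of 4013 genes with at least 50 CPM, 13.2% were higher in members with Arg1 in all 4 libraries and 22.9% were lower in all 4. All 9 measured genes of glycolysis and the hypoxia response were higher in all 4, with a median of the mean log2 ratios of 0.86 against -0.08 for all genes. Bnip3, a hypoxia-induced gene of mitochondrial turnover, was at 361, 262, 432 and 375 CPM with Arg1 against 98.9, 58.3, 163 and 115 without. Ldha, which makes lactate, had a mean log2 ratio of 0.86 and the glucose transporter gene Slc2a1 of 0.85.

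Of the lipid-associated list 7 of 10 genes were higher in all 4 libraries and none lower. Heme and iron had 4 of 7 higher and none lower (median 0.63), the chemokines 8 of 15 and none lower, and growth factors and matrix 6 of 12 and 1 lower. Fabp5, a fatty acid carrier, was at 3620, 2921, 5460 and 2952 CPM with Arg1 against 1638, 1793, 3230 and 1480 without. Fn1 (fibronectin) had a mean log2 ratio of 2.01, the scavenger receptor gene Cd36 of 1.99 and the elastase gene Mmp12 of 1.90. Ccl6 stood at 1.88 and Hmox1, which breaks down heme, at 1.79. Retnla stood highest among the genes listed at 3.35, on the few cells described above. The other direction held 4 of 8 efferocytosis genes and 4 of 12 interferon response genes, against 22.9% of all genes. On each of these lists 1 gene was higher in all 4 libraries. Axl, a receptor for Gas6, was at 54.5, 46.1, 38.2 and 31.4 CPM with Arg1 against 112, 109, 74.0 and 88.7 without. The engulfment gene Elmo1 had a mean log2 ratio of -0.87 and Cd86, a ligand for T cell costimulation, of -0.83. No MHC class II gene of the 6 measured had the same direction in all 4 libraries.

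**Figure D3:**
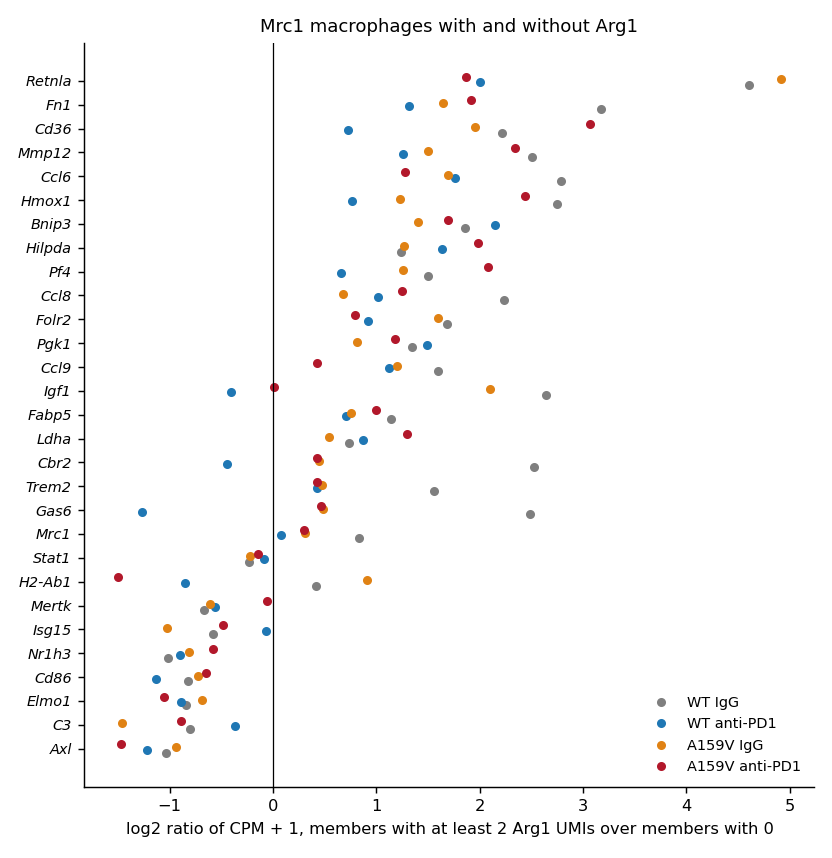
Points give, for each of the 4 libraries in its own color, the log2 ratio of CPM + 1 in members with at least 2 Arg1 UMIs over members with 0, for the genes on the vertical axis in order of their mean. Retnla, Fn1 and Cd36 lie to the right of 0 in all 4 libraries (mean 3.35, 2.01 and 1.99) and Axl lies to the left in all 4 (mean -1.16).

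The members were then set against C1q macrophages of the same library with 0 UMIs of Mrc1 and Arg1, which numbered 411, 53, 373 and 297. At least 2 Arg1 UMIs were found in 32.0% to 55.4% of the members, so the classes differ in Arg1 as well as in Mrc1. Within the members, genes such as Ccl6, Cd36 and Hmox1 were higher with Arg1 in all 4 libraries (mean log2 ratios of 1.88, 1.99 and 1.79). Selenop was higher with Arg1 in 2 libraries and Mertk in 0. The part of Arg1 in this comparison was not tested. UMIs were summed per class and library and compared with edgeR's quasi-likelihood test with the library as a block and Benjamini-Hochberg adjustment over all 8929 genes tested, so that the 4 libraries served as replicates of the class difference. Of these genes, 477 were higher in the members (5.34%) and 326 lower (3.65%) at an adjusted p under 0.05, and the median log2 fold change of all genes was -0.02. The genes of the gates and Arg1 were left out. The members were deeper, with median UMIs of 4743.5, 4482, 2841 and 3894 against 3311, 2397, 2128 and 2974, and with cells thinned to 2000 UMIs 308 genes were higher and 308 lower. The other class of WT anti-PD1 was small and carried 33390 CPM of the fibroblast list against 4069 in its members. Without this library 625 genes were higher and 527 lower, and of the genes named for this comparison Apoe and Lpl lost their call. Leaving out A159V anti-PD1 instead gave 195 and 102, leaving out A159V IgG 260 and 165, and leaving out WT IgG 306 and 333. Without the block 70 and 11 genes passed. A gene that passes the filter on low counts through 1 class alone has its direction set by the filter. In 63 of the 477 higher and 150 of the 326 lower genes, the class with less was under the filter's limit of 8.25 CPM in at least 1 library. Such genes are given below by their levels, without a test, and are left out of the list counts.

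Pf4, Selenop and other genes of tissue-resident macrophages were higher in the members. Of the 15 on this list, 7, among them Timd4 and Vsig4, were under the count filter, and Cd163 and Folr2 passed it through the members. The 6 that remained were all higher. Cd163, the receptor for hemoglobin bound to haptoglobin, was at 11.8, 24.8, 48.0 and 94.5 CPM in the members and at 0 UMIs in the other class of all 4 libraries. Against a floor of 3 UMIs over the 4 libraries of that class it was at least 59.9-fold higher. It was a gene of few members, with a UMI in 1.5%, 5.18%, 6.57% and 8.15% of them. In each library 1 member held 40%, 10.1%, 20% and 24.6% of the Cd163 UMIs. Folr2 was at 115, 89.5, 167 and 154 CPM against 9.02, 0, 26.0 and 32.2. Pf4, a platelet-type chemokine also made by resident macrophages, was at 1354, 1679, 3865 and 2564 CPM against 111, 277, 463 and 161 (log2 fold change 3.38 ± 0.22 SE, adjusted p = 2.32e-05, edgeR). In Folr2 and Pf4 the lowest member value exceeded the highest value of the other class. F13a1, a transglutaminase of clotting, rose by 2.78 on the log2 scale and Selenop, a selenium carrier, by 2.48. Maf, a transcription factor of resident macrophages, rose by 1.14 and the scavenger receptor gene Stab1 by 1.65.

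Of 9 scavenger and endocytic receptors left after the same step, 5 were higher and none lower, with a median of 0.70. Mgl2 and Clec10a, neighboring lectins for galactose-type sugars that interleukin 4 induces, had passed the count filter through the members. Mgl2 was at 41.7, 98.9, 15.1 and 33.9 CPM against 2.12, 0, 1.73 and 0.871. Clec10a was at 34.6, 81.9, 28.8 and 64.5 CPM against 5.84, 12.2, 6.93 and 0.871. Both share sequence, and how reads that fit either were counted was not looked at. Cd36, a receptor for oxidized lipids, was at 177, 985, 121 and 279 CPM against 37.7, 114, 24.3 and 29.6 (2.76 ± 0.18, adjusted p = 1.28e-05 in edgeR). Msr1, another scavenger receptor gene, rose by 0.99. On the alternative activation list 6 genes were left, of which the transcription factor gene Klf4 was higher (0.90) and the other 5, Chil3 and Pdcd1lg2 among them, did not pass. Ccl24, an eosinophil chemokine gene of this list, had passed the filter through the members.

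Chemokines went both ways, with 7 of 14 higher and 2 lower. Ccl6, which attracts myeloid cells, was at 1283, 2506, 1711 and 1928 CPM against 126, 200, 179 and 212 (3.38 ± 0.14, adjusted p = 1.40e-07, edgeR). Ccl9 rose by 2.26, the monocyte attractants Ccl7 by 1.55 and Ccl2 by 0.77, and the neutrophil attractant Cxcl2 by 1.23. The 2 that fell were T cell attractants. Ccl5 was at 94.4, 87.0, 43.9 and 92.5 CPM against 709, 236, 454 and 489 (-2.47 ± 0.29, adjusted p = 0.00403), and Cxcl9 at 112, 81.9, 11 and 94.5 against 318, 171, 36.4 and 309 (-1.44 ± 0.15, adjusted p = 0.000116). Cxcl9 also belonged to the interferon response list, of which 5 of 12 genes fell and none rose (median -0.53). Isg15, a ubiquitin-like antiviral protein gene, was at 966, 155, 807 and 588 CPM against 1811, 387, 1805 and 1488 (-1.13 ± 0.13, adjusted p = 0.000193).

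Other lists moved less evenly. Of the lipid-associated genes 6 of 10 were higher, with a median of 1.20, among them Fabp5 at 2492, 2556, 4457 and 2293 CPM against 580, 493, 2002 and 1006 (1.73 ± 0.22, adjusted p = 0.0015, edgeR) and the lipid receptor gene Trem2 (1.66). Hmox1 and Trf (transferrin) were among 3 of 6 heme and iron genes that rose, by 1.46 and 2.57. Complement had 4 of 6 genes higher, among them the alternative pathway gene Cfp (properdin, 1.40), and Itgax (CD11c) lower at -0.78. Among growth factors and matrix, the collagenase gene Mmp13 rose (2.54) with Grn, Tgfbi fell, and the others of 14 did not pass. Of efferocytosis genes 3 of 9 rose, of which Cd36 and Stab1 also stand on other lists and Mertk rose by 1.19, and Axl fell by 0.96 on the log2 scale. Glycolysis and hypoxia had 2 of 9 higher, inflammatory activation 1 of 8 (Il6), transcription factors 3 of 10 and immune suppression 1 higher (Sirpa) and 1 lower (Havcr2) of 7. None of the 6 MHC class II genes and none of the 5 cell cycle genes passed in either direction, with medians of -0.17 and -0.65. Each list holds few genes.

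The genes that fell most included markers of monocytes. Ly6c2, the classical monocyte antigen, was at 449, 75.0, 335 and 261 CPM against 1007, 387, 944 and 1041 (-1.68 ± 0.18, adjusted p = 0.000343, edgeR). Plac8 was at 1026, 192, 902 and 982 CPM against 1962, 725, 2255 and 3056 (-1.40 ± 0.16, adjusted p = 0.000209). The 6 monocyte markers together, Ccr2, Vcan and Chil3 among them, summed to 1815, 596, 1560 and 1813 CPM in the members and to 3417, 1503, 3618 and 4942 in the other class. These 2 were the only monocyte markers of the 6 to pass. The other genes with the largest falls were Hes1, Ly6i, Ass1, Carmil1, Gpr141 and Traf1, between -1.90 and -1.29. Hes1 encodes a Notch target and Ass1 an enzyme of arginine synthesis. Hes1 ranged from 14.6 to 20.4 CPM in the members and from 27.0 to 166 in the other class.

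A second comparison took Arg1 macrophages without Mrc1, which had at least 2 Arg1 UMIs and 0 of Mrc1 and numbered 53, 32, 54 and 95. Of the members, 31.6% to 59.0% had 0 Arg1 UMIs, so these classes also differ in Arg1. All 9 measured glycolysis and hypoxia genes were higher with Arg1 within the members, as given above. The part of Arg1 in this second comparison was not tested. Of 6571 genes tested in the same way, 100 were higher in Mrc1 macrophages (1.52%) and 183 lower (2.78%). Without WT anti-PD1 these were 128 and 212, and without A159V anti-PD1 35 and 72. In 41 of the higher and 34 of the lower genes, the class with less was under the filter's limit, here 17.8 CPM, in at least 1 library, and these are again given by their levels. Clec10a was at 3.23, 7.54, 0 and 5.04 CPM in the Arg1 class. Fcgrt, the receptor that recycles IgG, was at 66.9, 144, 104 and 188 CPM in the members against 12.9, 37.7, 5.37 and 15.1. Selenop was at 241, 935, 366 and 521 CPM against 77.5, 219, 48.3 and 47.9 (log2 fold change 2.37 ± 0.24 SE, adjusted p = 0.000112, edgeR). Pf4 (0.96) passed with Selenop among 6 resident genes, and Mertk, a TAM receptor, among 8 efferocytosis genes (1.19). Slc9a9, Psd3, Itsn1 and the lipid transfer gene Pltp were also among the 12 largest rises, between 1.70 and 2.13. None of 10 lipid-associated genes, 9 scavenger and endocytic receptors and 5 heme and iron genes was higher than in the Arg1 class. On each of these lists 1 gene was lower, with medians of -0.37, -0.19 and -0.60. None of 5 alternative activation genes passed in either direction.

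Inflammatory and hypoxia genes were lower in Mrc1 macrophages than in this Arg1 class. Of 9 inflammatory genes 6 fell and none rose, with a median of -1.09. Il1b was at 756, 453, 960 and 953 CPM against 1415, 1153, 2720 and 1576 (-1.23 ± 0.17, adjusted p = 0.000513, edgeR). Ptgs2, the inducible cyclooxygenase gene, was at 479, 507, 462 and 633 CPM against 707, 1364, 1438 and 1524 (-1.34 ± 0.18, adjusted p = 0.000496). Nos2, which makes nitric oxide, fell by 1.89 on the log2 scale, and Tnf, Il6 and Il1a by 0.90, 1.19 and 1.09. Of 9 glycolysis and hypoxia genes 4 fell and none rose, with a median of -0.61. Vegfa, the vascular growth factor gene, was at 208, 296, 260 and 194 CPM against 307, 573, 515 and 537 (-1.12 ± 0.18, adjusted p = 0.00166), and Slc2a1 fell by 0.93. The receptor gene Met and the EGF family ligand gene Areg fell as well, by 2.31 and 2.05. Inhba, an activin subunit gene, was under the filter's limit in the members of WT anti-PD1 and stood at 33.8, 17.0, 26.0 and 33.3 CPM against 171, 151, 531 and 411. Chemokines again went both ways, with Ccl3, Ccl4, Ccl5, Cxcl1 and Cxcl2 lower and Ccl6, Ccl7 and Pf4 higher of 13. Fibroblast UMIs differed between the classes as well, with Col3a1 at 215, 1195, 13.7 and 27.9 CPM in the members against 1108, 3943, 26.8 and 22.7, and their part in these results was not tested.

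Both comparisons used the same member sums, so their directions are not independent of each other. Il6, Bnip3 and Cxcl2 were called in opposite directions, higher than in macrophages without Mrc1 and Arg1 and lower than in Arg1 macrophages.

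**Figure D4:**
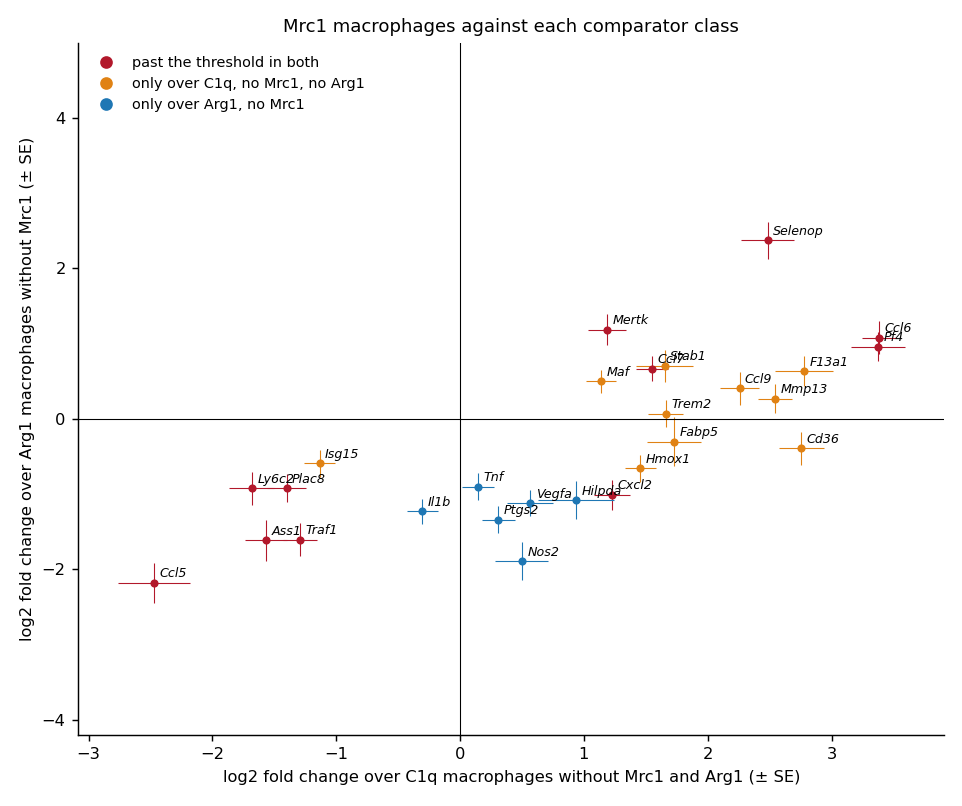
Each point is a gene, placed by its log2 fold change in Mrc1 macrophages over C1q macrophages without Mrc1 and Arg1 (horizontal) and over Arg1 macrophages without Mrc1 (vertical), with bars of 1 SE and colors for an adjusted p under 0.05 in both comparisons or in 1 of them. Genes that passed the count filter through 1 class are not drawn. Selenop lies at the upper right, Ccl5 at the lower left and Il1b and Ptgs2 low on the vertical axis, and a color for 1 comparison is no test of a difference between the 2.

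Levels within Mrc1 macrophages were compared between libraries for the 3 comparisons of the study, with genes of at least 50 CPM in 1 of the 2 libraries and a 2-fold limit. A log2 ratio here is that of CPM + 1, with a 95% interval for counting error only, and no test could be made with 1 library a group. The first and second comparison share WT IgG and the first and the third share A159V IgG, so a low or high value in a shared library enters both. A159V IgG over WT IgG had 25 of 3911 genes higher (0.639%) and 45 lower (1.15%). WT anti-PD1 over WT IgG had 219 of 4012 higher (5.46%) and 286 lower (7.13%). A159V anti-PD1 over A159V IgG had 51 of 3905 higher (1.31%) and 42 lower (1.08%). With members thinned to 2000 UMIs the first became 195 and 180 and the third 188 and 169.

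MHC class II genes, which present peptides to CD4 T cells, differed between the libraries together. H2-Ab1 was at 486, 1353, 184 and 935 CPM in the members. H2-Eb1 was at 674, 1417, 196 and 1296 CPM and H2-Aa at 648, 1988, 270 and 1450. Cd74, the invariant chain gene, was at 1246, 3813, 620 and 2274 CPM. A159V IgG was thus lowest and WT anti-PD1 highest in all 4 genes. In A159V IgG over WT IgG, 4 of 6 measured class II genes were past 2-fold lower with a median log2 ratio of -1.13. In WT anti-PD1 over WT IgG 5 of 6 were higher (median 1.29), and in A159V anti-PD1 over A159V IgG 4 of 6 were higher (median 2.11). H2-Ab1 had log2 ratios of -1.40 (-1.67 to -1.13), 1.47 (1.35 to 1.60) and 2.34 (2.09 to 2.60) in these comparisons. In C1q macrophages without Mrc1 and Arg1 the same ratios of H2-Ab1 were -1.56, 0.05 and 1.08. The anti-PD1 ratios of the members were larger than those of the other class, which was not tested, and their IgG ratio was close to it. In WT the anti-PD1 ratio of the other class rested on 53 cells of WT anti-PD1, which carried 33390 CPM of the fibroblast list.

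Cxcl9, which interferon gamma induces, was also lowest in A159V IgG. It was at 112, 81.9, 11 and 94.5 CPM in the members, so A159V IgG stood apart from the other 3 libraries. Only 4 members of A159V IgG had a Cxcl9 UMI. Its log2 ratio was -3.24 (-4.18 to -2.29) for A159V IgG over WT IgG and 3 (2.05 to 3.94) for A159V anti-PD1 over A159V IgG, and -3.09 and 3.05 in the class without Mrc1 and Arg1. Nrg1, an ERBB ligand gene, was at 103, 310, 31.5 and 196 CPM. The fractalkine receptor gene Cx3cr1 was at 74.8, 39.6, 20.6 and 35.3 CPM, and the cytokine signaling inhibitor gene Socs1 at 63.7, 65.0, 21.9 and 48.6.

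Genes higher in the members of A159V IgG than of WT IgG began with the metallothioneins, which bind zinc. Mt2 was at 111, 117, 579 and 223 CPM, a log2 ratio of 2.37 (2.10 to 2.65), and it was 1.02 with members thinned to 2000 UMIs and 1.11 without predicted doublets. Mt1 was at 437, 379, 1466 and 542 CPM with 1.74 (1.60 to 1.89), 0.65 thinned and 0.80 without doublets. In A159V IgG 1 member held 31.0% of the Mt2 UMIs and 28.8% of those of Mt1. Pf4 had a ratio of 1.51 (1.43 to 1.60), and in WT IgG, the lower library, it had a UMI in 122 of the 200 members. Mmp12 was at 861, 2196, 1989 and 886 CPM (1.21, 1.09 to 1.32) and the hexokinase gene Hk2 at 164, 155, 378 and 240 CPM (1.20, 0.94 to 1.46). Retnla had a ratio of 1.61, which was 0.50 without the top member of each library.

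The members of WT anti-PD1 were higher than those of WT IgG in genes of alternative activation and lower in interferon response genes. Of 9 measured alternative activation genes 6 were past 2-fold higher with a median log2 ratio of 1.23. Pdcd1lg2 was at 15.7, 151, 23.3 and 47.9 CPM, a ratio of 3.19 (2.58 to 3.79), and had a UMI in 204 members of WT anti-PD1. Lpl (lipoprotein lipase) was at 172, 1450, 184 and 92.5 CPM (3.06, 2.87 to 3.26). Slc7a2, a transporter of arginine, was at 49.6, 395, 65.8 and 110 CPM (2.97, 2.61 to 3.33), and the transferrin receptor gene Tfrc at 37.0, 225, 43.9 and 38.6 CPM (2.57, 2.16 to 2.99). In these 4 genes the members of WT anti-PD1 stood above those of the other 3 libraries. Igf1 (2.86), Ccl24 (2.92), Ksr2 (3.44) and Ccdc162 (3.45) were among the 10 highest as well. Cd36 had a ratio of 2.47 and Arg1 of 1.32. Of 10 lipid-associated genes Lpl was past 2-fold higher and Spp1 lower (-1.90), with a median of 0.42, and of 7 heme and iron genes Slc40a1 (1.71) and Trf (1.92) were higher and none lower, with a median of -0.21.

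The interferon genes lay the other way, with 6 of 12 past 2-fold lower, 1 higher and a median of -0.83. Ifit3, an antiviral gene, was at 334, 20.7, 236 and 124 CPM in the members (-3.95, -4.30 to -3.59). Isg15 had a ratio of -2.63 (-2.78 to -2.48), and Ifit1bl1, Isg20, Ifi208 and Ifi27l2a lay between -3.58 and -2.29. Gbp4, which interferon gamma induces, was the one past 2-fold higher, at 32.3 against 73.8 CPM. Ly6c2 and Plac8 were lower with ratios of -2.57 and -2.42, and the monocyte attractants Ccl7, Ccl2 and Ccl12 with -1.52, -1.39 and -1.79. The class without Mrc1 and Arg1 had ratios of -3.15 for Ifit3 and -2.22 for Isg15, so these genes were lower in WT anti-PD1 in both classes. Fibroblast markers moved with the same comparison, as 5 of 5 measured were higher in WT anti-PD1 with a median of 2.52, and tumor markers were lower, with Rhox5 at 127 against 0.942 CPM. When members with a stromal UMI were left out the comparison had 433 genes higher and 465 lower, over 52 members of WT anti-PD1. The part of free RNA from other cells in these ratios was not tested.

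In A159V tumors anti-PD1 over IgG gave Cxcl9 and the class II genes, described above, as 5 of the 10 highest ratios. Ccl24 was at 11, 90.1, 19.2 and 93.1 CPM and had a ratio of 2.22 (1.46 to 2.98), with a UMI in 22 members of A159V anti-PD1. It was past 2-fold higher under anti-PD1 in both genotypes. Ch25h, which makes the oxysterol 25-hydroxycholesterol, had 1.92 (1.15 to 2.68), and Gja1 (connexin 43) 1.93 (1.16 to 2.69). Of 6 measured alternative activation genes 3 were higher and none lower, with a median of 0.83. Genes lower in A159V anti-PD1 included Retnla (-2.83), Atp6v0d2 (-1.88), a subunit of the vacuolar proton pump, the metallothionein gene Mt1 (-1.43), Acp5 (-1.38), an acid phosphatase, and the interleukin 33 receptor gene Il1rl1 (-1.41). Il1rl1 was at 70.8, 9.42, 67.2 and 24.6 CPM in the members, so both anti-PD1 libraries were below both IgG libraries. The intervals of Acp5 and Il1rl1 were -1.76 to -0.99 and -2.01 to -0.81.

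**Figure D5:**
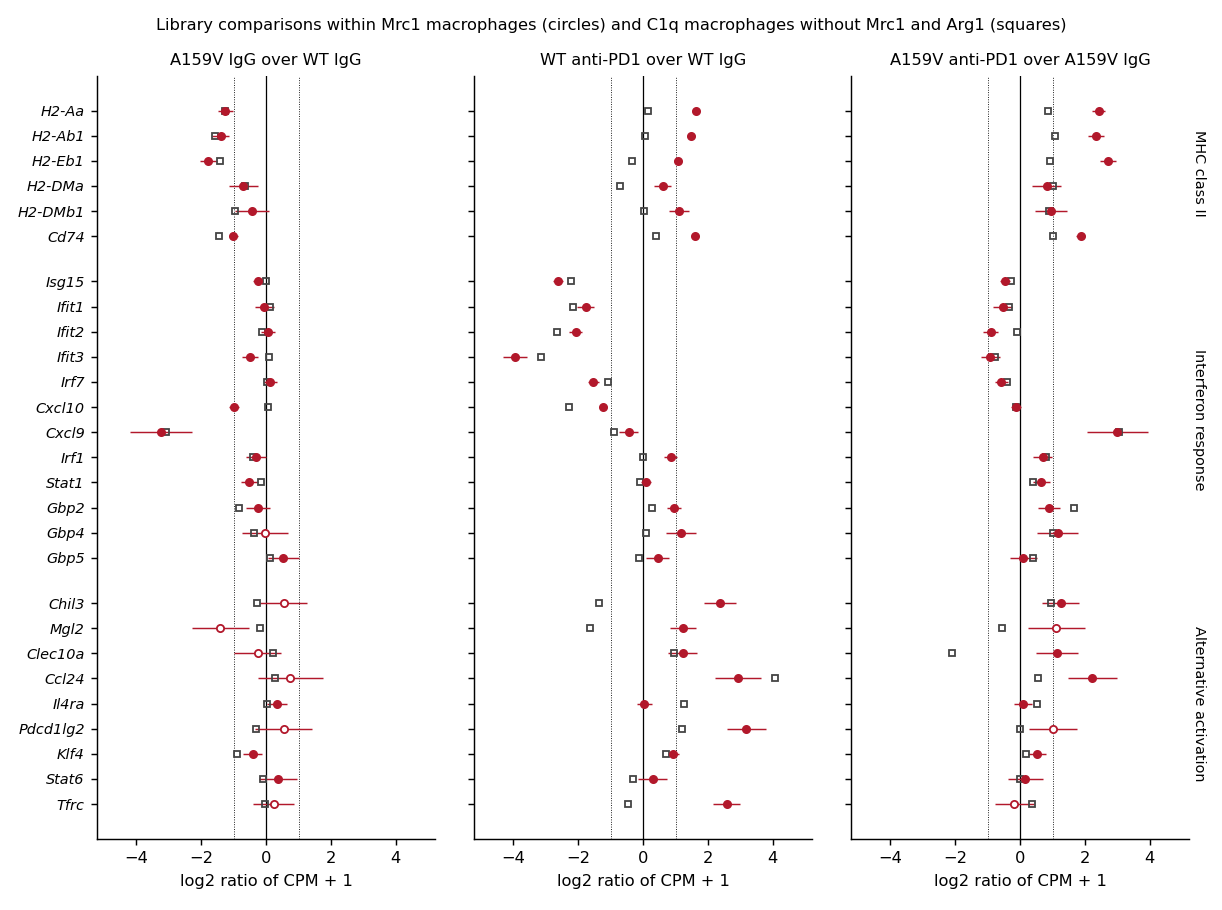
The 3 panels plot, for genes of the lists named at the right, the log2 ratio of CPM + 1 between 2 libraries in Mrc1 macrophages (circles with 95% counting intervals, open where the gene was under 50 CPM in both libraries) and in C1q macrophages without Mrc1 and Arg1 (squares), with dotted lines at 2-fold. H2-Ab1 lies at -1.40, 1.47 and 2.34 from left to right and Ifit3 reaches -3.95 in the middle panel, and neighboring panels share a library.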

How the data were processed

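Single-cell RNA was measured in 4 libraries of MC38 tumors (1 library per group) with 10x Genomics 3′ chemistry. The authors deposited raw UMI counts per gene and barcode from Cell Ranger, version 7.2.0 per the file headers and 5.0.1 per the labels, on mm10. Their removal of background RNA and of doublets is not applied in these files, and none was applied here. Barcodes with more than 500 genes were kept. Doublets were predicted as the highest Scrublet scores (scanpy 1.11.5), at a rate that grew with the number of cells, and kept, with their removal as an alternative. Members, classes and gene lists were chosen with earlier results of these data known.

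Cells are not replicates, so UMIs were summed per class and library. The class comparisons used edgeR 4.0.16 (R 4.3.3) with a quasi-likelihood test, its filter on low counts, trimmed mean (TMM) scaling and the library as a block, called at an adjusted p under 0.05. These p-values measure the spread between 4 libraries that also differ in genotype and treatment. Between libraries, log2 ratios of CPM + 1 were taken, with intervals for counting error only. The fits were tested on simulated data. Promoters and motif matches came from RefSeq, and 32158 of 32285 gene identifiers matched GENCODE M21 (GRCm38). Of 232 list genes looked up, 2 were not matched (Clec7a and Aldoa). Genes named were those of the lists, the 12 largest called changes each way with 1 direction in all 4 libraries and 50 CPM, and the 10 largest library ratios each way. List counts leave out genes for which the lower class was under the filter's limit in at least 1 library, a step chosen after seeing the data. Predicted, mitochondrial, ribosomal and receptor genes were left out, as were stray genes over 5 times higher in T, tumor, fibroblast or neutrophil gates. Alternatives were other gates, filters, scaling, thinning to 2000 UMIs, DESeq2 1.42.0 and leaving out each library. Allowing Pecam1 and removing cells with 20 or more stromal UMIs were chosen after seeing the data. Some genes, and a list that rests on one of them, are not reported here.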

Additional observations from a re-analysis of the deposited data

Results flagged for a closer look

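In WT anti-PD1, 349 cells with Mrc1 and C1q were left out of the members for Pecam1 UMIs alone, against 25 to 97 in the other libraries, and 324 of them had no UMI of the other 4 endothelial markers. They are Mrc1 and C1q signal in cells that the comparisons do not use.

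Retnla had an anti-PD1 over IgG log2 ratio of 3.09 in WT and of -2.83 in A159V. Without the member with the most Retnla UMIs in each library the ratios were 3.42 and -1.44. Atp6v0d2 likewise had 2.55 in WT and -1.88 in A159V, with 2.65 and -2.10 without the top member of each library. Each group is 1 library, so the difference between the genotypes was not tested.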

How the results depend on the processing

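The share folds moved by more than their counting interval under some gates. With cells thinned to 2000 UMIs the fold was 1.40 for A159V IgG over WT IgG and 4.08 for WT anti-PD1 over WT IgG. With at least 1 Mrc1 UMI the folds of anti-PD1 over IgG were 2.23 in WT and 1.17 in A159V, and with at least 3 they were 3.98 and 1.84. Over C1q macrophages without Mrc1 and Arg1, 228 genes were higher and 157 lower with at least 10 C1q UMIs, 308 higher when thinned, 717 lower with no filter on low counts, and 70 higher and 11 lower without the library block. Leaving out 1 library gave 195 to 625 higher and 102 to 527 lower. Over Arg1 macrophages without Mrc1, 30 were higher and 45 lower with at least 10 C1q UMIs, 55 higher with DESeq2, 251 higher with no filter, and 10 and 8 without the block. Leaving out 1 library gave 35 to 128 and 72 to 212. The cause was not tested, although leaving out a library leaves fewer samples. For A159V IgG over WT IgG, 27 genes were lower with at least 1 Mrc1 UMI, 60 higher with at least 3, 50 higher with at least 10 C1q UMIs, 46 higher in members without stromal UMIs, 195 higher and 180 lower when thinned, 15 and 29 with a pseudocount of 10 CPM and 119 and 191 at 20 CPM. For WT anti-PD1 over WT IgG there were 433 and 465 in members without stromal UMIs and 399 and 554 at 20 CPM. For A159V anti-PD1 over A159V IgG there were 76 lower with at least 3 Mrc1 UMIs, 65 lower without stromal UMIs, 188 and 169 when thinned, 31 and 27 with the larger pseudocount and 144 and 147 at 20 CPM. Among single genes, Ftl1 over the class without Mrc1 and Arg1 turned to -0.011 with at least 10 C1q UMIs and to -0.17 when thinned, and Mtap in A159V IgG over WT IgG turned to 0.54 when thinned. Over all settings tried, the named genes of the 2 class comparisons kept direction and call in 973 and 685 values and lost the call in 160 and 147. With 1 library a group, depth limits what the library ratios can show for genes under 50 CPM.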

Other observations

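Lyve1 was found in 22 of the 1090 members thinned to 2000 UMIs. Of these, 95.5% had a Ccl8 UMI against 38.7% of the other members, 86.4% had Gas6 against 7.02% and 68.2% had Cbr2 against 7.21%. Lyve1 itself was at 29.1, 0.628, 57.6 and 53.9 CPM in the members (WT with IgG, WT with anti-PD1, A159V with IgG, A159V with anti-PD1), with 2 UMIs in all of WT anti-PD1.

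Levels of cycling genes in the members ranged widely, with Pcna at 205, 278, 143 and 175 CPM. Top2a, a topoisomerase of dividing cells, was at 68.5, 29.8, 42.5 and 132 CPM and Mki67 at 36.2, 27.3, 17.8 and 47.2. Cd274, which encodes PD-L1, was at 495, 375, 563 and 572 CPM and Il10 at 44.9, 57.5, 54.8 and 52.6, so neither differed by 2-fold between any of the libraries compared. Ccr2, the receptor of the monocyte attractants, was at 173, 127, 145 and 313 CPM. Spp1 (osteopontin) was at 1584, 423, 1025 and 552 CPM, lower in each anti-PD1 library than in the IgG library of the same genotype.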
